A study of Mus musculus with 8 samples.

Results

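Superoxide dismutases, catalase and peroxiredoxins are the enzymes that remove superoxide and hydrogen peroxide from cells. The set described here held 10 genes of 17518 in the expression table: the superoxide dismutases Sod1 and Sod2, catalase (Cat), the 6 peroxiredoxins Prdx1 to Prdx6, and Srxn1, which encodes sulfiredoxin. Their rows were taken by gene symbol, but the set was chosen with earlier results of these data known. All 10 passed the filter on low counts, as did 11911 genes in all.

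The 8 libraries were made from polyadenylated RNA of a mouse alveolar macrophage line, MH-S. Cells received lipopolysaccharide (LPS, a bacterial cell wall component) at 100 ng/mL together with nanoparticles called RCMNs at 1 µg/mL (LPS+RCMNs, n = 3), LPS with no dose stated in its labels (LPS, n = 2), or phosphate-buffered saline (control, n = 3). The series title describes the nanoparticles as responsive to reactive oxygen species and intended for acute lung injury. No time of exposure was given, and all libraries came from the same line.

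Superoxide dismutases turn superoxide into hydrogen peroxide, Sod1 in the cytosol with copper and zinc and Sod2 in the mitochondrial matrix with manganese. Catalase, in peroxisomes, and the peroxiredoxins then break down the peroxide. Peroxiredoxins do so with a reactive cysteine that thioredoxin or glutathione reduces again, and sulfiredoxin rescues peroxiredoxins whose cysteine has been oxidised too far. In macrophages Sod2 is a classical target of the inflammatory factor NF-kappaB, whereas Srxn1 and Prdx1 are classical targets of Nrf2, the factor of the antioxidant response.

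Each library held between 18.6 and 21.2 M (mega) counts. The macrophage markers Lyz2, at 1974 to 3818 counts per M of scaled library size (CPM), and Adgre1, at 288 to 622 CPM, were present in all libraries. Siglecf and Marco, which mark alveolar macrophages in tissue, were near 0, with highest levels of 0.186 and 1.32 CPM. The 9 alveolar macrophage markers together summed to 69.7 to 104 CPM in LPS+RCMNs, 103 to 108 CPM in LPS and 18.7 to 27.4 CPM in control, and the part of this difference in the results was not tested. Principal component 1, with 73.4% of the variance, set the LPS libraries, at 72.1 and 70.0, apart from LPS+RCMNs at -22.1 to -11.2 and control at -30.3 to -28.4. LPS+RCMNs replicate 2 and control replicate 1 also deviated from their groups in a shared way (r = 0.38 across genes, which are not independent replicates), and results are given without them where they matter. In these bulk libraries a change in the number of cells of a type and a change in RNA per cell cannot be told apart. Whether replicates came from different cultures is not in the labels, and each p-value therefore reflects the spread among these libraries alone, which may be technical.

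The upstream sequences of the 5 genes that ended higher in LPS+RCMNs than in control are shown to place the motifs of the 2 kinds of factor named above. Each is the 250 bases before the RefSeq transcription start on GRCm38.p6, read 5′ to 3′ on the strand of the gene. Capitals mark TGANTCA, the core of AP-1 sites that also occurs within many Nrf2 sites, or the NF-kappaB consensus, on either strand.
Srxn1, chr2:152105274-152105523, + strand: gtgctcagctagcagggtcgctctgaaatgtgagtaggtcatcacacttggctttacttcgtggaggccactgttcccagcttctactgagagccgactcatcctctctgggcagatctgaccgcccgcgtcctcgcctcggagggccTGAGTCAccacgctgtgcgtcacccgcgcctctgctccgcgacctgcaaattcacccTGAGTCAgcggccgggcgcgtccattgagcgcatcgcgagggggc
Prdx1, chr4:116685349-116685598, + strand: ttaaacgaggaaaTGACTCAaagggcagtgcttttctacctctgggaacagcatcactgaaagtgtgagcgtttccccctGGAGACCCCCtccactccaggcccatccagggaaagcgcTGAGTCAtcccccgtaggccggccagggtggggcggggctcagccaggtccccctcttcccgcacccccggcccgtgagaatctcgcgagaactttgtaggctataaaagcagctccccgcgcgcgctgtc
Sod2, chr17:13007589-13007838, + strand: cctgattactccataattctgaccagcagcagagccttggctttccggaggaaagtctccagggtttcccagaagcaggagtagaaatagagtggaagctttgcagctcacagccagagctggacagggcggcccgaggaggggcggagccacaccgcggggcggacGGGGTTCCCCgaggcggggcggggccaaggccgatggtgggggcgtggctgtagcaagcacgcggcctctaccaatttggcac
Cat, chr2:103485154-103485403, - strand: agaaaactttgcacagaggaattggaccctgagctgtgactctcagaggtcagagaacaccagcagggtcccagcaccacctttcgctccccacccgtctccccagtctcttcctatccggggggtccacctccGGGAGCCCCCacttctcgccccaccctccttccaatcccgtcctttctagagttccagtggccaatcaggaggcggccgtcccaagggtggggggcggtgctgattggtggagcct
Prdx5, chr19:6910107-6910356, - strand: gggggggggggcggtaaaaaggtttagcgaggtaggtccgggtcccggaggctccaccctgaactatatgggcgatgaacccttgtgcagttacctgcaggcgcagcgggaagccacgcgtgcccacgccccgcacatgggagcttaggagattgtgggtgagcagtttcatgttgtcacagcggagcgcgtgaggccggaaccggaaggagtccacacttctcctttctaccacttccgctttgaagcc

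TGANTCA occurred at 2 places in Srxn1, 102 to 96 and 45 to 39 bases before the start, and at 2 places in Prdx1, 237 to 231 and 131 to 125 bases before it. It was present in 2 of the 9 genes of the set with a sequence, against 6.75% of 32851 windows of the same length. The NF-kappaB consensus lay 83 to 74 bases before the start in Sod2, 170 to 161 in Prdx1 and 116 to 107 in Cat, 3 of 9 genes against 7.25% of windows. TGACNNNGC, the core of the antioxidant response element, matched Prdx1 (133 to 125, overlapping TGANTCA) and Sod1 (56 to 48), against 10.2% of windows, and GGGCGG, the core of Sp1 sites, matched 8 of 9 genes, against 32.7%. A match is a description of letters, and binding was not measured.

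Levels of different genes were compared on the FPKM scale of the authors, which divides by length. Prdx1 was the most abundant of the 10 in every group, at 898 ± 83.2 FPKM in LPS+RCMNs (SD, n = 3), 1059 ± 19.3 FPKM in LPS (SD, n = 2) and 519 ± 31.7 FPKM in control (SD, n = 3). Sod1 was next in every group, at 217 ± 13.2, 621 ± 26.9 and 243 ± 12.0 FPKM in LPS+RCMNs, LPS and control, although in LPS+RCMNs its values overlapped those of Prdx5. Prdx5 ranked 3 in LPS+RCMNs (207 ± 14.1 FPKM) and in LPS (265 ± 13.6 FPKM), and 6 in control, where its 90.1 ± 0.559 FPKM overlapped Prdx4. Cat, Srxn1 and Sod2 were the lowest 3 in LPS+RCMNs, at 37.3 ± 0.780, 49.3 ± 10.7 and 56.3 ± 10.1 FPKM, and in control, at 29.2 ± 4.26, 24.1 ± 6.62 and 31.3 ± 2.48 FPKM. Neighbours in those orders overlapped. In LPS, Sod2 stood above Prdx4, at 162 ± 13.2 against 121 ± 0.262 FPKM.

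**Figure D1:**
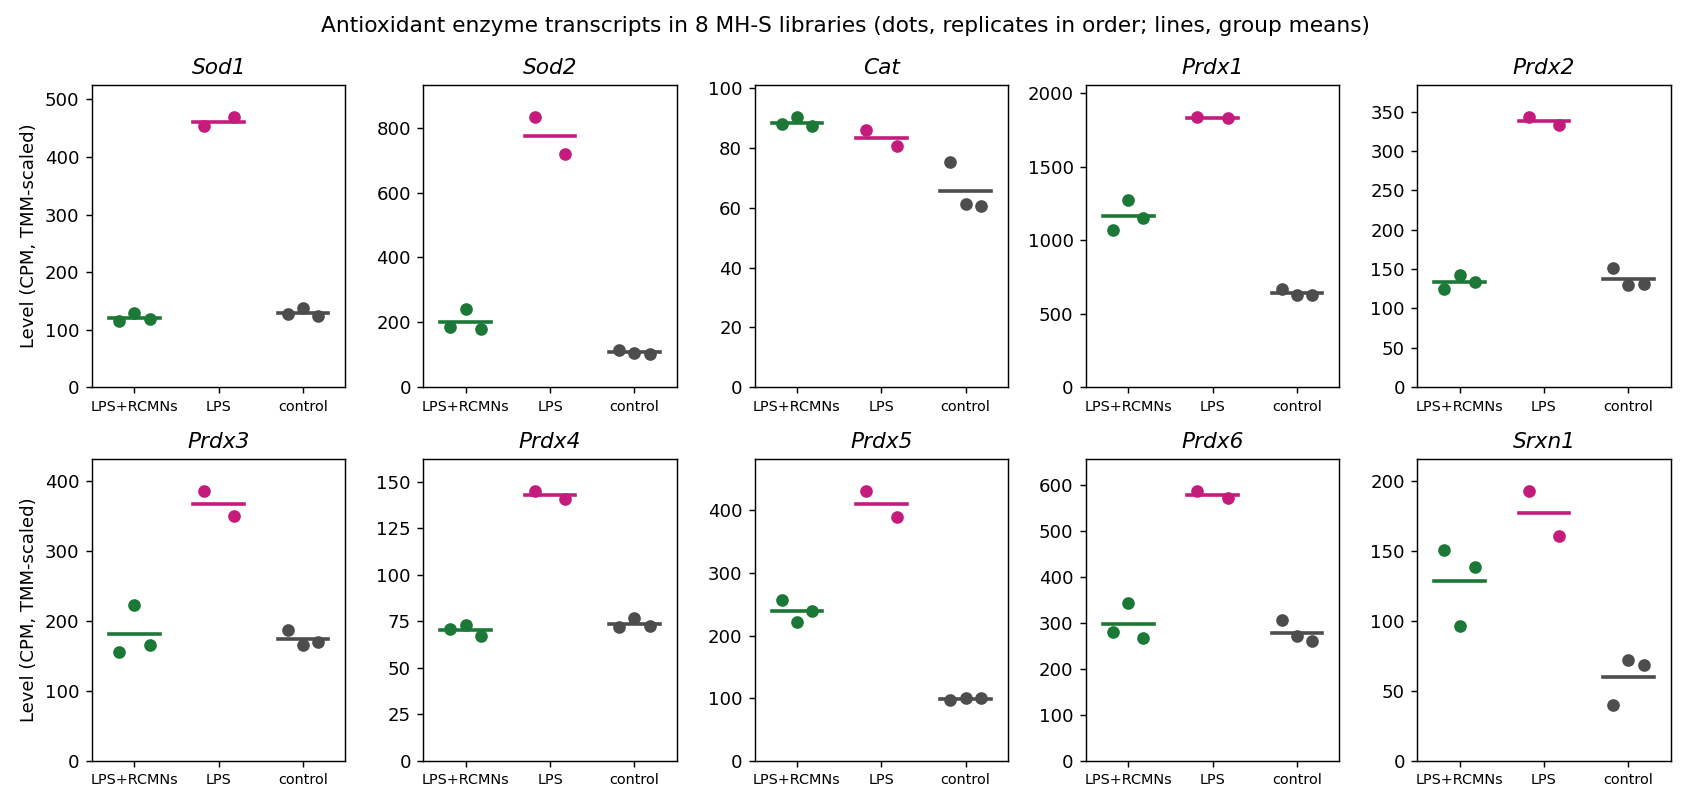
Level of each gene in CPM (vertical axis, from 0) in the 8 libraries by group, with dots for libraries in replicate order and lines for group means. Sod1, Prdx2, Prdx3, Prdx4 and Prdx6 were high in LPS alone and alike in LPS+RCMNs and control, whereas Sod2, Prdx1, Prdx5 and Srxn1 in LPS+RCMNs lay between LPS and control, and Cat was lowest in control.

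The comparison of LPS with control sets cells given LPS against cells given saline. The 2 LPS libraries also differed from the other 6 in a trend of level on transcript length and in globin transcripts, and in both comparisons that use them these differences and the treatment cannot be told apart. All 10 genes were called higher in LPS (edgeR's quasi-likelihood test, Benjamini-Hochberg adjusted p below 0.05), with no overlap between the groups and a median log2 fold change of 1.41, against a median of -0.04 over all genes. Of all tested genes 63.4% were called, 31.4% of all genes higher by the same rule, and 76.1% showed no overlap. The size of the rise differed widely within the set, from 0.34 for Cat to 2.86 for Sod2.

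Sod2, the mitochondrial dismutase (gene ID 20656, GRCm38.p6 chromosome 17, 13007839 to 13018119), was at 832 and 719.8 CPM in LPS, against 114, 104 and 103 CPM in control. Its log2 fold change was 2.86 ± 0.14 (SE; adjusted p = 1.02e-06), the largest of the set. Sod1, the cytosolic dismutase (20655, chromosome 16, 90220762 to 90226333), was at 454 and 469 CPM in LPS and at 127, 137 and 124 CPM in control, a log2 fold change of 1.84 ± 0.09 (adjusted p = 9.88e-07). Both dismutases thus rose, and the ratio between them was higher in LPS, given here without a test. The ratio of Sod2 to Sod1 FPKM was 0.285 and 0.239 in LPS, against 0.140, 0.118 and 0.129 in control, without correction for the length trend.

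Catalase had the smallest change of the set on scaled counts, though not under every scaling. Cat (12359, chromosome 2, 103453904 to 103485153) was at 86.2 and 80.7 CPM in LPS and at 75.2, 61.4 and 60.7 CPM in control, a log2 fold change of 0.34 ± 0.11 (adjusted p = 0.0213). The call was lost without LPS replicate 1 (adjusted p = 0.0965) and without control replicate 3 (adjusted p = 0.0520). On the authors' FPKM scale Cat was 26.8 and 25.9 in LPS and 34.1, 26.8 and 26.6 in control, so the direction for this gene depends on the scaling.

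Among the peroxiredoxins, Prdx5, which serves mitochondria, peroxisomes and cytosol, rose most. It was at 431 and 389 CPM in LPS, against 96.6, 100.4 and 101 CPM in control (log2 fold change 2.05 ± 0.10, adjusted p = 8.83e-07). Prdx1, the major cytosolic form (18477, chromosome 4, 116685599 to 116700000), was at 1837 and 1829 CPM in LPS, against 671, 626 and 626 CPM in control (1.52 ± 0.09, adjusted p = 2.44e-06). The other 4 rose by 0.96 to 1.30 on the log2 scale: Prdx2, a cytosolic form abundant in red blood cells, at 343 and 333 CPM in LPS against 151, 130.4 and 131 CPM in control, the mitochondrial Prdx3, Prdx4 of the endoplasmic reticulum, and Prdx6, which has a lone active cysteine. Prdx4 had the smallest of these rises (0.96 ± 0.08), at 145 and 141 CPM in LPS against 72.1, 76.6 and 72.5 CPM in control. Every peroxiredoxin was therefore at a higher CPM in both LPS libraries than in any control library.

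Srxn1, the enzyme that restores overoxidised peroxiredoxins (76650, chromosome 2, 152105524 to 152111376), was at 193 and 161 CPM in LPS and at 40.1, 71.8 and 68.9 CPM in control. Its log2 fold change was 1.55 ± 0.25 (adjusted p = 5.67e-04), with the widest error of the set. Control replicate 1 was the low library, and without it the value was 1.38.

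**Figure D2:**
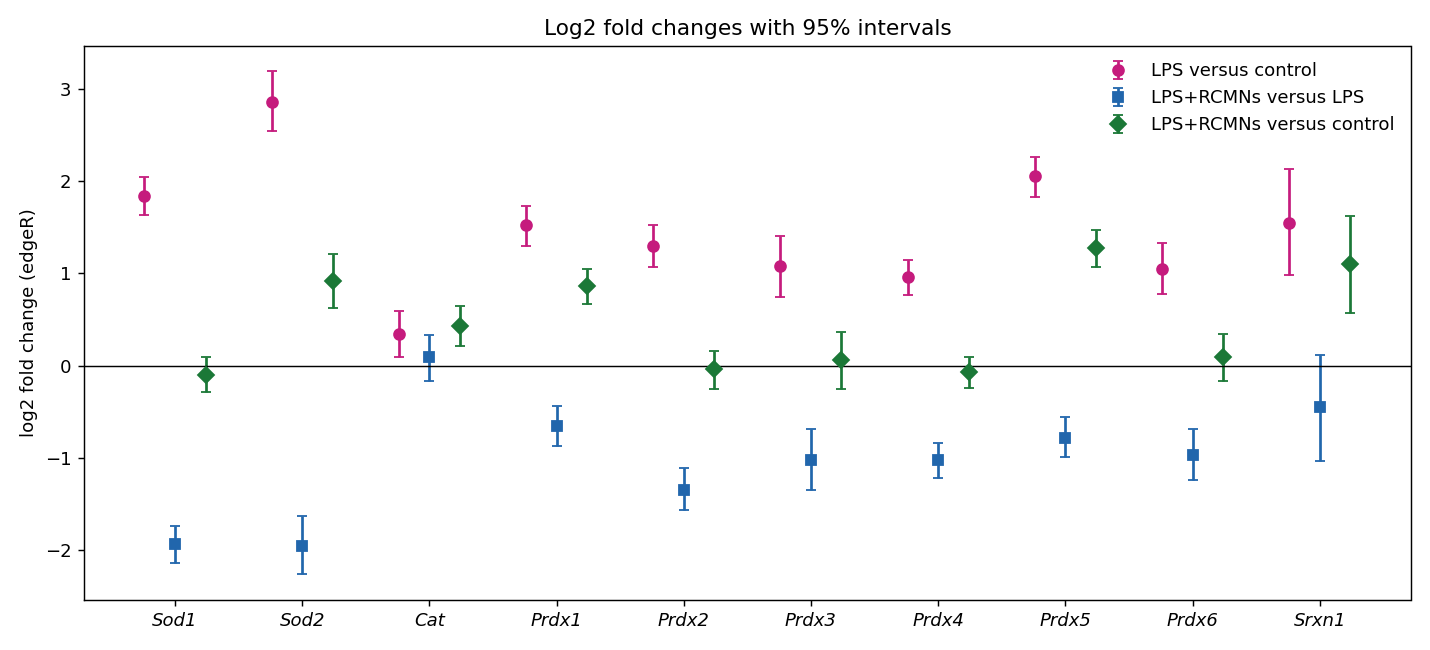
Log2 fold change of each gene (vertical axis) from edgeR with its 95% interval, for LPS versus control (circles), LPS+RCMNs versus LPS (squares) and LPS+RCMNs versus control (diamonds). The LPS+RCMNs versus control intervals of Sod2, Cat, Prdx1, Prdx5 and Srxn1 lie above 0, and those of the other 5 genes include 0. The 3 comparisons share libraries.

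The LPS libraries carried a trend of level on transcript length, and the 10 genes ranged from 0.588 kb (Sod1) to 3.78 kb (Sod2) in the length implied by counts and FPKM. With that trend removed from each library, which was possible for 11131 genes, 8 of the 10 were called higher, against 24.8% of genes. Sod2 rose by 3.24, Srxn1 by 1.60 and Prdx5 by 1.31 on the log2 scale, while Sod1, the shortest, rose by 0.37 and Prdx4 stood at -0.05 and was not called. With length and mean level both removed, 6 of 10 genes were called higher, against 22.0% of genes, namely Sod2 (2.99), Srxn1 (1.42), Prdx5 (1.01), Prdx2 (0.40), Prdx1 (0.39) and Sod1 (0.26). Prdx3 (0.15), Prdx6 (0.31), Cat (0.14) and Prdx4 (-0.22) were not called. The rises of Sod2, Srxn1 and Prdx5 were thus at least 1.00 under both corrections, and the others were smaller than 1.00.

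On the authors' TPM scale, which fixes the sum of length-corrected levels, the median of all genes shifted to -0.79 in LPS versus control, with 1020 genes higher and 8173 lower against 3736 and 3818 on scaled counts. On log2(FPKM + 1) the median was -0.33, with 2113 higher and 5925 lower. By limma on log2(TPM + 1), Sod2 (1.85), Prdx5 (1.05), Sod1 (0.85), Prdx1 (0.53) and Prdx2 (0.31) were called higher, against 8.56% of genes, and Cat was lower, at -0.63 (adjusted p = 8.70e-04). Srxn1 (0.59), Prdx3 (0.08), Prdx6 (0.06) and Prdx4 (-0.03) were not called. Relative to the median of all genes on this scale the 10 values ran from 0.16 (Cat) to 2.64 (Sod2).

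**Figure D3:**
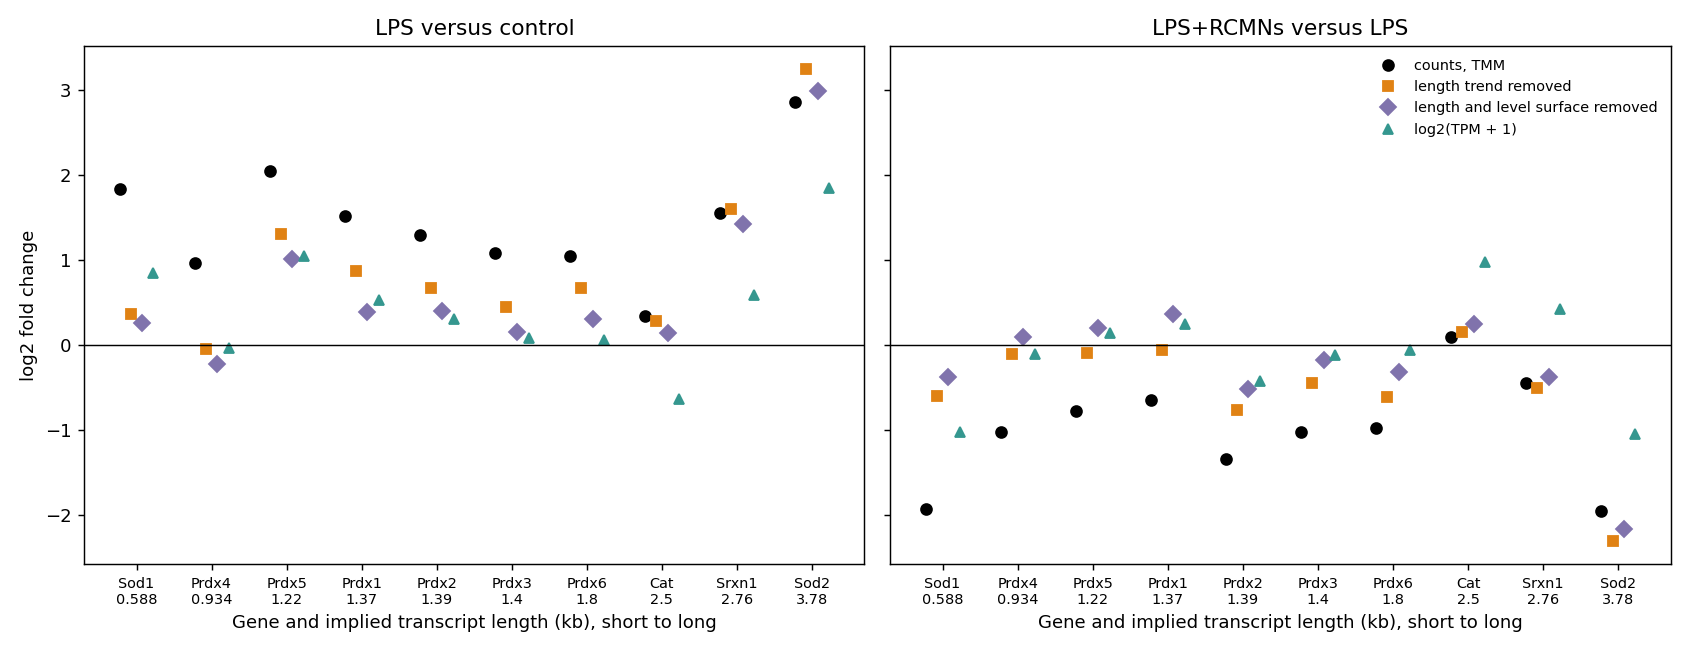
Log2 fold change (vertical axis) of each gene, ordered along the horizontal axis from the shortest to the longest transcript (kb), for LPS versus control (left) and LPS+RCMNs versus LPS (right), under scaled counts, under 2 corrections for length and on log2(TPM + 1). Sod1 and Sod2 kept their direction and call under all 4. The size of the Sod1 rise moved from 1.84 on scaled counts to 0.26 with length and level removed in LPS versus control.

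Transcripts of red blood cells were also high in the LPS libraries. Of 9 erythroid markers 8 were in the table and summed to 4359 and 5624 CPM in LPS, against 0.759 to 34.2 CPM in LPS+RCMNs and 0.910 to 20.8 CPM in control. The sum rested mostly on globins. Alas2, a marker that is not a globin, was also higher in both LPS libraries (up to 33.3 CPM) than in any other library (up to 0.577 CPM). Slc4a1 and Epb42, which encode red cell membrane proteins, were at or below 0.303 CPM in every library. The part of these transcripts in the levels of Prdx2, Cat or any other enzyme was not tested.

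The comparison of LPS+RCMNs with LPS asks what the nanoparticles changed in cells given LPS. Of the 10 genes 8 were called lower and 2, Cat and Srxn1, were not called. Their median log2 fold change was -0.99, against 0.03 over all genes. Of all tested genes 59.3% were called, 29.5% of all genes lower by the same rule. The groups did not overlap for any of the 10 genes, nor for 74.9% of all genes. This comparison shares its LPS libraries with LPS versus control, so opposite signs in the pair are not independent.

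Both dismutases fell by similar amounts on scaled counts, but not once length was corrected for. Sod1 was at 115, 128 and 119 CPM in LPS+RCMNs, against 454 and 469 CPM in LPS (log2 fold change -1.93 ± 0.09, adjusted p = 8.91e-07). Sod2 was at 184, 242 and 178 CPM in LPS+RCMNs, against 832 and 719.8 CPM in LPS (-1.95 ± 0.14, adjusted p = 6.67e-06). With the length trend removed the values of Sod1 and Sod2 were -0.60 and -2.30, and with length and level removed -0.38 and -2.16, all still called. The ratio of Sod2 to Sod1 FPKM was 0.250, 0.293 and 0.233 in LPS+RCMNs, a range that includes the 0.285 and 0.239 of LPS. This ratio sets the longest gene of the set against the shortest and was not corrected for the length trend.

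Cat did not pass the test, with 88.0, 90.3 and 87.3 CPM in LPS+RCMNs, 86.2 and 80.7 CPM in LPS, and a log2 fold change of 0.09 (95% interval -0.16 to 0.33). On log2(TPM + 1) it was called higher, at 0.98 (adjusted p = 6.83e-05), where the median of all genes was 0.71. On log2(FPKM + 1) it was also called higher, at 0.49, with a median of 0.27 over all genes. On TPM 7947 genes were higher and 963 lower, and on FPKM 5448 were higher and 2117 lower, against 3555 and 3508 on scaled counts.

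The peroxiredoxins fell unequally. Prdx2 fell most, with 125, 143 and 133 CPM in LPS+RCMNs against 343 and 333 CPM in LPS (-1.34 ± 0.10, adjusted p = 7.99e-06). Prdx1 fell least, with 1068, 1274 and 1151 CPM in LPS+RCMNs against 1837 and 1829 CPM in LPS (-0.65 ± 0.09, adjusted p = 2.93e-04), followed by Prdx5 (-0.78 ± 0.09), which was at 257, 222 and 239.6 CPM in LPS+RCMNs against 431 and 389 CPM in LPS. Prdx3, Prdx4 and Prdx6 had values of -1.02, -1.02 and -0.97. The falls of Prdx1, Prdx4 and Prdx5 ended once the length trend was removed (-0.06, -0.10 and -0.09, not called), and with length and level removed Prdx1 was called higher, at 0.37 (adjusted p = 0.0101). Under that last correction Prdx3 (-0.18) and Prdx6 (-0.32) were not called either, and Prdx2 was the only peroxiredoxin still called lower, at -0.51. On log2(TPM + 1) Prdx1 was also called higher, at 0.25, and of the peroxiredoxins Prdx2 alone was called lower, at -0.42.

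Srxn1 was at 151, 96.8 and 139 CPM in LPS+RCMNs and at 193 and 161 CPM in LPS. All 3 values lay below both LPS values, but the log2 fold change of -0.45 ± 0.25 did not pass the test (95% interval -1.03 to 0.12, adjusted p = 0.151). Without LPS+RCMNs replicate 2 and control replicate 1 it was called, at -0.31 (adjusted p = 0.00828), and without control replicate 1 alone at -0.48 (adjusted p = 0.0390). These libraries were picked for their deviation in these same data, so the calls add no independent evidence. Over all genes 8738 were called without the pair and 7685 without control replicate 1, against 7063 with all libraries.

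The comparison of LPS+RCMNs with control uses none of the LPS libraries for its contrast and shows where the treated cells ended. The set divided into 5 genes called higher and 5 not called. Of all tested genes 7.56% were called and 4.33% were called higher by the same rule, and 29.8% showed no overlap between the groups, against 5 of the 10 genes here. The median log2 fold change was 0.26, against -0.02 over all genes. The length corrections left the division as it was, with the same 5 genes called higher under both, against 4.57% of genes with the length trend removed and 4.52% with length and level removed.

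Prdx5 was furthest above control, with 257, 222 and 239.6 CPM in LPS+RCMNs against 96.6, 100.4 and 101 CPM in control (log2 fold change 1.27 ± 0.09, adjusted p = 8.10e-05). Prdx1 was at 1068, 1274 and 1151 CPM in LPS+RCMNs, against 671, 626 and 626 CPM in control (0.86 ± 0.09, adjusted p = 7.26e-04). Sod2 was at 184, 242 and 178 CPM in LPS+RCMNs, against 114, 104 and 103 CPM in control (0.92 ± 0.13, adjusted p = 0.00374). For each of these 3 genes every LPS+RCMNs library lay above every control library, and the call held under all 19 alternatives, at 1.19 to 1.34 for Prdx5, 0.75 to 0.92 for Prdx1 and 0.79 to 1.02 for Sod2.

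Srxn1 and Cat were higher with less certainty. Srxn1 was at 151, 96.8 and 139 CPM in LPS+RCMNs, against 40.1, 71.8 and 68.9 CPM in control (1.10 ± 0.23, adjusted p = 0.0235). Cat was at 88.0, 90.3 and 87.3 CPM in LPS+RCMNs, against 75.2, 61.4 and 60.7 CPM in control (0.43 ± 0.10, adjusted p = 0.0334). The low Srxn1 library of each group and the high Cat library of control were the pair that stood apart, and without that pair both genes were called, at 1.07 for Srxn1 and 0.55 for Cat. That pair was picked for its deviation in these same data. Without it 3017 of all genes were called, against 901 with it, so these calls add no independent evidence. Leaving out LPS+RCMNs replicate 1 or 3 ended both calls (adjusted p = 0.0916 and 0.0831 for Srxn1, 0.110 and 0.104 for Cat), so that 3 of the 10 genes were called, against 340 and 322 of all genes. Cat was also lost without control replicate 2 (adjusted p = 0.111) or 3 (adjusted p = 0.124), without LPS replicate 1 (adjusted p = 0.0559) or 2 (adjusted p = 0.0551), on log2(FPKM + 1) (adjusted p = 0.0706) and on log2(TPM + 1) (adjusted p = 0.0649). Srxn1 was also lost when only the 2 groups compared were fitted (adjusted p = 0.0526).

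The other 5 genes did not pass the test, and their intervals bound the difference. Sod1 was at 115, 128 and 119 CPM in LPS+RCMNs and 127, 137 and 124 CPM in control, with a log2 fold change of -0.10 (95% interval -0.28 to 0.09). Prdx2 was at 125, 143 and 133 CPM in LPS+RCMNs and 151, 130.4 and 131 CPM in control, at -0.04 (-0.25 to 0.16). Prdx4 was at 71.0, 73.1 and 67.1 CPM in LPS+RCMNs and 72.1, 76.6 and 72.5 CPM in control, at -0.07 (-0.24 to 0.10). The groups overlapped for each of these. Prdx3 (0.06, interval -0.25 to 0.36) and Prdx6 (0.09, interval -0.16 to 0.34) also overlapped, with LPS+RCMNs replicate 2 the highest library of its group for both, at 223 and 342 CPM.

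The makeup of the peroxiredoxin pool followed from these values. The 6 genes summed to 1497, 1742 and 1551 FPKM in LPS+RCMNs, to 2101 and 2096 FPKM in LPS, and to 1201, 1077 and 1074 FPKM in control. Prdx1 made up 54.8% to 57.2% of the sum in LPS+RCMNs, 49.7% and 51.2% in LPS, and 46.3% to 46.8% in control. Prdx5 made up 11.1% to 14.7% in LPS+RCMNs, 13.1% and 12.2% in LPS, and 7.46% to 8.45% in control. The shares of Prdx2, Prdx4 and Prdx6 were lowest in LPS+RCMNs, at 6.25% to 6.46%, 4.76% to 5.34% and 10.1% to 11.6%. The share of Prdx3 in LPS+RCMNs, 7.79% to 9.71%, overlapped that in LPS. These are descriptions without a test. Summed TPM was 3177 to 3596 in LPS+RCMNs, 3169 and 3077 in LPS, and 2268 to 2509.8 in control, so the excess of LPS over LPS+RCMNs in the sum was present on FPKM and not on TPM.

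**Figure D4:**
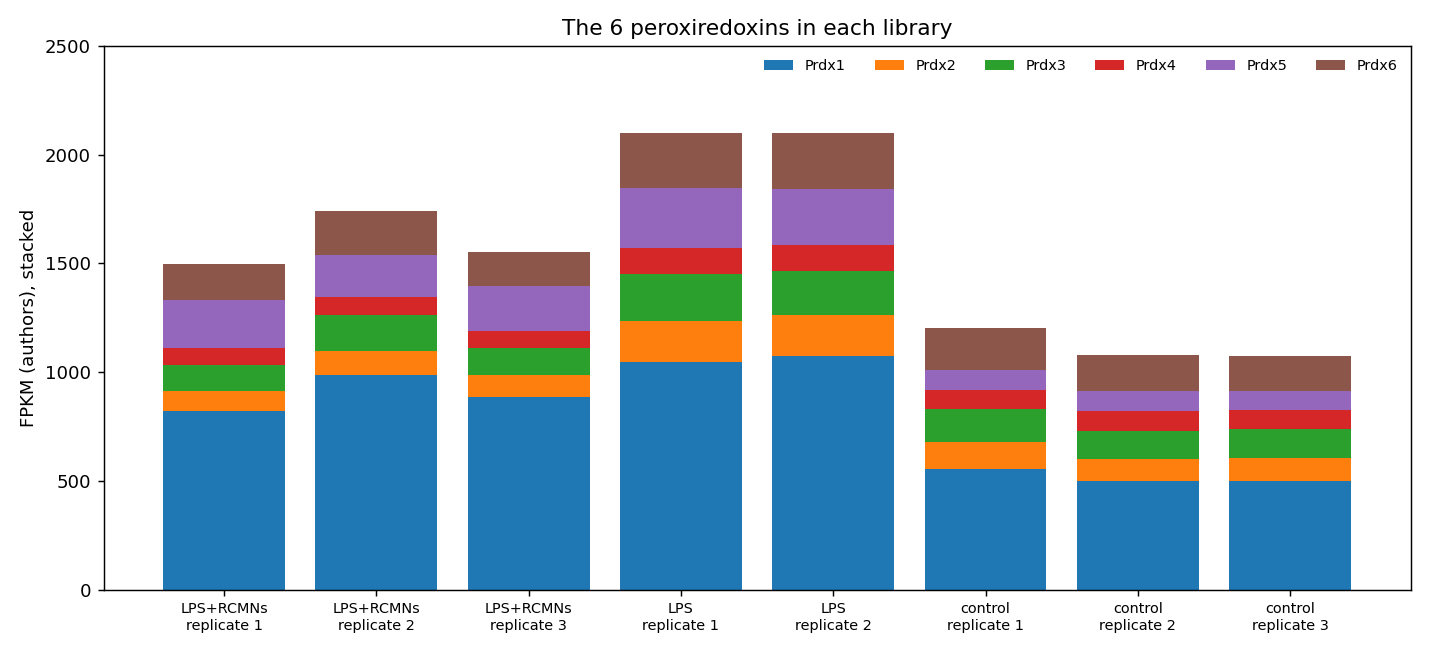
Stacked FPKM of the 6 peroxiredoxins (vertical axis, from 0) in each library, 1 bar per library. The sum was 1497 to 1742 in LPS+RCMNs, 2096 and 2101 in LPS and 1074 to 1201 in control, and Prdx1 was the largest part of every bar.

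Some counts could hold reads of overlapping genes, since the counting was not stated to use strand. Prdx5 on chromosome 19 (6906697 to 6910106, - strand) shares exon sequence with Trmt112 on the opposite strand. Trmt112 had a log2 fold change of 1.38 in LPS versus control and -1.63 in LPS+RCMNs versus LPS, both of the same sign as Prdx5. In LPS+RCMNs versus control it had -0.25 (adjusted p = 0.101), the opposite sign to Prdx5. Prdx2 on chromosome 8 (84969622 to 84974811, + strand) overlaps exons of Junb and Rnaseh2a on the opposite strand. Junb, an early response transcription factor, was not called in LPS versus control (-0.09), and Rnaseh2a was higher by 0.45. In LPS+RCMNs versus LPS Junb was not called (0.15) and Rnaseh2a was lower, at -0.64. The part of shared reads in the counts of Prdx5 and Prdx2 was not tested. Prdx6b, a near copy of Prdx6, had at most 3.42 counts in any library, and how reads shared with Prdx6 were divided is uncertain.

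The partners of these enzymes were read from the same fit on scaled counts, and the list counts are not given here with the length trend removed. They stand beside 31.4% of all genes called higher in LPS versus control (63.4% called, median -0.04), 29.5% called lower in LPS+RCMNs versus LPS (59.3% called, median 0.03) and 4.33% called higher in LPS+RCMNs versus control (7.56% called, median -0.02). Of 21 tested genes of superoxide and peroxide handling outside the set, 16 rose and 2 fell in LPS relative to control (median 0.87). Txn1, the thioredoxin that reduces peroxiredoxins, rose by 1.70 ± 0.10, and Txnrd1, the reductase that recharges it, by 0.70 ± 0.17. The copper chaperones Atox1 and Ccs rose by 1.88 ± 0.09 and 0.77 ± 0.13, and glutaredoxin (Glrx) rose by 2.18 ± 0.16. The direction depended on the scaling for Ccs and Txnrd1, whose mean TPM was 43.4 and 210.3 in LPS against 50.6 and 256 in control. Txn1 was higher in LPS on TPM too, at 595 against 364. Sesn1, a stress protein of the sestrin family, fell by 2.53.

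Relative to LPS, 3 of those 21 genes were higher in LPS+RCMNs and 13 lower (median -0.89). Txn1 fell by 1.59 and Ccs by 0.89, while Txnrd1 was not called (-0.16 ± 0.18). On mean TPM Txn1 was at 373 in LPS+RCMNs against 595 in LPS, whereas Ccs was at 44.1 against 43.4 and Txnrd1 at 355 against 210.3. Relative to control, 3 were higher and 1 lower in LPS+RCMNs (median 0.03), with Glrx higher by 1.07 ± 0.15 and Sesn1 lower, at -1.02. Txn1, at 169 CPM on average in LPS+RCMNs and 156 CPM in control, did not pass the test (0.11 ± 0.09), nor did Txnrd1 (0.54 ± 0.16, adjusted p = 0.0731).

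Among 23 tested Nrf2 targets outside the set, 12 were higher and 11 not called in LPS+RCMNs versus control (median 0.48). LPS versus control had 17 higher and 1 lower (median 0.83), and LPS+RCMNs versus LPS had 2 higher and 11 lower (median -0.21). The cystine importer Slc7a11 averaged 59.2 CPM in LPS+RCMNs, 66.7 CPM in LPS and 13.8 CPM in control, and was higher in LPS+RCMNs than in control by 2.09 ± 0.36. Esd, an esterase, was higher in that comparison by 0.98 ± 0.09 and the autophagy receptor Sqstm1 by 0.48 ± 0.12. The transcript of Nrf2 itself, Nfe2l2, was lower in LPS than in control (-0.51 ± 0.12), higher in LPS+RCMNs than in LPS (0.34 ± 0.12, adjusted p = 0.0323) and not called in LPS+RCMNs versus control (-0.17 ± 0.10). Keap1, its inhibitor, was called in none of the 3 comparisons, with log2 fold changes of -0.05, 0.12 and 0.06.

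Sources of superoxide and peroxide were mixed. Of 11 tested genes 8 rose and 3 fell in LPS relative to control (median 0.56), where 63.4% of all genes were called. LPS+RCMNs had 3 higher and 7 lower relative to LPS (median -0.59), and 4 higher and 7 not called relative to control (median 0.32). Xdh, xanthine dehydrogenase, averaged 105 CPM in LPS+RCMNs, 13.4 CPM in LPS and 74.7 CPM in control, and the peroxisomal oxidase Acox3 averaged 32.4, 6.87 and 39.1 CPM in LPS+RCMNs, LPS and control. Both were lower in LPS than in control (-2.48 ± 0.34 and -2.51 ± 0.31). The oxidase Nox1 rose by 2.48 ± 0.36 in LPS but averaged only 1.54 CPM there.

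Peroxisome assembly genes, whose products bring catalase to its compartment, changed little. Of 16, 6 rose and 1 fell in LPS relative to control (median 0.20), and 1 was higher and 5 lower in LPS+RCMNs relative to LPS (median -0.19). In LPS+RCMNs versus control edgeR called 0 of 16 (median -0.08), with 0 at an unadjusted p below 0.05 and 0 called by DESeq2. Pex5, the import receptor for catalase, was not called in any of the 3, at -0.08, -0.04 and -0.11. Pex16 rose by 1.00 ± 0.14 and Pex14 by 0.66 ± 0.13 in LPS.

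The genes most like 4 members over the 8 libraries, by Pearson correlation of log2(CPM + 1) among the 7960 genes averaging 5 FPKM or more, are given as a description. For Sod1 they were the ribosomal protein genes Rps19, Rpl19 and Rps14 and the factor Btf3, at 0.998 to 0.999. For Sod2 they included Ehd1, Cebpd and Gtf2h1, at 0.995 to 0.998. For Srxn1 they were Itga5, Capza2, Ctsl and Ifi27, at 0.990 to 0.997, and for Cat they were Slamf9, Creg1, LOC101055758 and Arap1, at 0.948 to 0.969. The libraries of each group share treatment and the LPS libraries share the length trend, so these values mostly order genes by how the 3 group means lie. Rps19, for instance, averaged 440.5 CPM in LPS+RCMNs, 1946 CPM in LPS and 472 CPM in control, and Ehd1 averaged 162, 563 and 90.2 CPM in LPS+RCMNs, LPS and control.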

How the data were processed

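Values came from a single table in which the authors give an expected count, an FPKM and a TPM for 17518 genes in each library, per the file headers. Of the deposited expected counts above 0, 77.8% are not whole (tolerance 0.001), so they are estimates. The build was mm10 per the submitters' processing notes, and FastQC was used per the series' design text. Aligner, counter and annotation: not given in the sources used here. Column names were matched to the code that the sample descriptions carry. A further 4 columns of per-sample values had another code and were left out.

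Counts were rounded, filtered with filterByExpr, scaled by TMM (factors 0.779 and 0.803 for LPS, 1.05 to 1.13 otherwise) and tested with edgeR 4.0.16 (quasi-likelihood, R 4.3.3) over all 8 libraries and 3 groups, with Benjamini-Hochberg adjustment over 11911 genes. The spread had 9.15 degrees of freedom. CPM uses the scaled library size. SE is the fold change over the square root of F. The procedure was tested on simulated data. Alternatives used limma 3.58.1 and DESeq2 1.42.0, and loess (span 0.4) for length.

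Members and lists were chosen with earlier results of these data known. Named genes were the 10 members, per list the 3 called genes of largest change in LPS versus control, fixed partners, and the 4 genes most correlated with each of 4 members. A few genes that this rule names are not reported here.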

Additional observations from a re-analysis of the deposited data

How the results depend on the processing

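The table was refitted under 19 alternatives, of which the fit on log2(TPM + 1) was chosen after seeing the data. Of 570 values for single genes of the set, 513 kept direction and call, 32 kept the direction and lost the call, 4 gained a call and 21 changed sign; the cause was not tested. In LPS versus control, 6 of the 10 genes were called with length and level removed (6 higher) and 6 on TPM (5 higher, 1 lower), against 10 (all higher), and 9 to 10 with 1 library left out. Over all genes, the first of these fits called 4860 of 11131 (2446 higher, 2414 lower). The fit on TPM called 9193 of 11911 (1020 higher, 8173 lower). In LPS+RCMNs versus LPS, 5 were called with the length trend removed (5 lower), 4 with length and level removed (1 higher, 3 lower) and 5 on TPM (2 higher, 3 lower), against 8 (all lower), and 8 to 9 with 1 library left out. Over all genes, 2013 were higher and 2528 lower of 11131 with the length trend removed, and 2121 and 2278 with length and level removed. On TPM 8910 of 11911 were called (7947 higher, 963 lower). In LPS+RCMNs versus control, 3 to 5 were called with 1 library left out.

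Over all genes, calls in LPS versus control numbered 7554, 4860 with length and level removed and 6002 to 7930 with 1 library left out. For LPS+RCMNs versus LPS they numbered 7063, 4541 with the length trend removed, 4399 with length and level removed and 5613 to 7685 with 1 library left out. For LPS+RCMNs versus control they numbered 901, 1379 by DESeq2, 3017 without LPS+RCMNs replicate 2 and control replicate 1, and 322 to 1372 with 1 library left out (1372 without LPS+RCMNs replicate 2, 340 and 322 without replicates 1 and 3, 442 and 415 without control replicates 2 and 3). The split there was 516 higher and 385 lower on scaled counts, 407 and 565 on FPKM and 416 and 674 on TPM.

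Signs changed in LPS versus control for Cat (-0.13 on FPKM, -0.63 on TPM) and Prdx4 (-0.05 with the length trend removed, -0.22 with length and level removed, -0.03 on TPM). Between LPS+RCMNs and LPS they changed with length and level removed for Prdx1 (0.37), Prdx4 (0.10) and Prdx5 (0.20), and on TPM for Prdx1 (0.25), Prdx5 (0.14) and Srxn1 (0.43). In LPS+RCMNs versus control they changed for genes that were not called: Prdx2 (0.00, 0.06 and 0.01 without LPS+RCMNs replicate 1, control replicate 1 or the pair that stood apart; -0.07 to 0.06 with 1 library left out), Prdx3 (-0.10 to 0.16 with 1 library left out, -0.10 and -0.04 without LPS+RCMNs replicate 2 or the pair, -0.03 on FPKM, -0.02 with length and level removed, -0.04 on TPM) and Prdx6 (-0.01 to 0.19 with 1 library left out, -0.01 without LPS+RCMNs replicate 2 and with length and level removed).

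Whether replicate numbers pair the samples is not in the labels. Deviations of same-numbered libraries from their group means correlated at -0.34 to 0.20 across genes. Within groups of 2 or 3 libraries such deviations sum to 0, so these values cannot decide whether samples were paired. Fitted with a replicate block, 3 of the 10 genes and 454 of all genes were called in LPS+RCMNs versus control. In LPS versus control 9 of the 10 and 6778 of all genes were called, and Cat lost its call (adjusted p = 0.0575). Every member had at least 925 counts in each library, and the 2 LPS libraries limit the precision of the comparisons that use them. The length corrections tested 11131 genes rather than 11911.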
